A study of Mus musculus with 6 samples.

Results

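The BCL2 family members described here are 10 genes, picked as a named set of family members and found by symbol among the 18518 gene symbols of the deposited table. They are the anti-apoptotic genes Mcl1, Bcl2l1 and Bcl2, the effectors Bax and Bak1, and the BH3-only genes Bcl2l11, Bid, Bad, Bbc3 and Pmaip1. All 10 had a row. RNA sequencing had been carried out on E14Tg2A cells, an established line of mouse embryonic stem cells, with 3 BACH1-KO and 3 WT libraries. In the knockout, Bach1 had been targeted with CRISPR/Cas9 from a transiently transfected LentiCRISPR V2 plasmid, followed by puromycin and sorting of single-cell clones, and the labels do not say whether the 3 libraries come from 1 clone or whether WT cells went through selection. Both genotypes were grown for 2 days with serum and with leukemia inhibitory factor (LIF) at 200 units/ml, the cytokine that holds such cells in self-renewal through STAT3. Sample titles of both genotypes share some closing digits, but the labels do not say what these mark, the table's columns cannot be tied to single titles, and a shared date or batch was not tested. The labels do not say whether the libraries come from separate cultures, so any p-value reflects how far these libraries spread, and that spread may be technical.

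Proteins of the BCL2 family decide whether the outer mitochondrial membrane stays closed. BAX and BAK form pores in it and let cytochrome c out, which assembles the apoptosome and activates caspases. MCL1, BCL-XL and BCL2 hold BAX and BAK in check, and the BH3-only proteins carry stress signals by occupying the groove of these guardians or by activating the pore formers directly. Embryonic stem cells are known to enter apoptosis readily after DNA damage.

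Levels are in FPKM, a unit that divides a gene's fragments by transcript length and by the size of the library. A gene was tested with limma on log2(FPKM + 1) if it averaged at least 1 FPKM over the 6 libraries. "Rose" and "fell" are used for an adjusted p under 0.05 over all 12187 tested genes, and log2 fold changes, given with their standard error (SE), subtract the WT mean of log2(FPKM + 1) from that of BACH1-KO. Pearson's r across tested genes, which are not independent replicates, was 0.991 to 0.994 between libraries of 1 genotype and 0.929 to 0.935 between genotypes. Bach1 transcript, which does not show whether the coding sequence is intact, was at 10.5, 10.4 and 10.4 FPKM in BACH1-KO and 7.97, 8.39 and 8.47 FPKM in WT (log2 fold change 0.30, limma adjusted p = 5.15e-04).

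Markers of embryonic stem cells were abundant in both genotypes, with the 10 on the list making up 0.908% to 0.944% of the summed FPKM in BACH1-KO and 1.34% to 1.44% in WT. 9 of these 10 fell and 1 rose. Transcripts of hepatocytes differed: the list held 0.122% to 0.127% of the summed FPKM in BACH1-KO and 0.00255% to 0.00326% in WT. All 15 tested of 16 listed rose. Of these, all but Trf and Rbp4 averaged under 1 FPKM in WT and passed the limit for testing only through BACH1-KO. They could therefore only be called higher or not be called, and their count carries no further information. Albumin (Alb) was at 461 to 471 FPKM in BACH1-KO and at 0.0738 to 1.39 FPKM in WT, while Afp was listed at 0 in the 3 BACH1-KO libraries. Of the 10 fibroblast feeder markers 3 were tested and fell, and their list held 0.00877% to 0.00919% in BACH1-KO and 0.0254% to 0.0273% in WT, with Vim, at 54.9 ± 1.35 FPKM in BACH1-KO and 186 ± 9.31 FPKM in WT, carrying most of that sum. Among the 7 untested feeder markers Dcn, Col1a2, Col3a1, Lum and Postn had higher means in BACH1-KO, the highest being Dcn at 0.764 ± 0.0944 FPKM in BACH1-KO and 0.0664 ± 0.0806 FPKM in WT, and Lum and Col3a1 were listed at 0 in WT. The endoderm list had 4 tested markers, 2 lower and 2 not past the threshold, at 0.00703% to 0.00739% in BACH1-KO and 0.0120% to 0.0131% in WT. Of 6 blood cell markers 3 were tested, 2 rose and 1 did not pass, at 0.00149% to 0.00152% in BACH1-KO and 2.93e-04% to 4.64e-04% in WT. The 2 that rose, Cd3e and Hba-a1, also averaged under 1 FPKM in WT and passed that limit only through BACH1-KO. The part of other cell types in the values of the BCL2 family was not tested, and in bulk RNA fewer cells of a type and less RNA per cell cannot be told apart.

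Of the 10 members, 6 rose in BACH1-KO (Mcl1, Bax, Bcl2l11, Bid, Bad and Bbc3), 3 fell (Bcl2l1, Bak1 and Pmaip1), and Bcl2 was too low to test. Every role was divided: the most abundant anti-apoptotic gene rose and the other tested one fell, 1 effector rose and the other fell, and 4 of 5 BH3-only genes rose. Such calls are common in these data, since the threshold was passed by 77.0% of all tested genes, with 37.3% called higher and 39.7% called lower. The same 9 members had groups that did not overlap, as 79.3% of all tested genes did. The median log2 fold change of the 9 tested members was 0.24, beside -0.012 over all tested genes, and the median size without sign was 0.40, beside 0.38. An exact two-sided permutation test of each member's FPKM values gave p = 0.1 for the 9 members, the smallest that 3 against 3 libraries allow, and p = 0.6 for Bcl2. Tested against a fold change of 1.5, which 19.0% of all tested genes passed, only Bad and Pmaip1 were called.

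**Figure D1:**
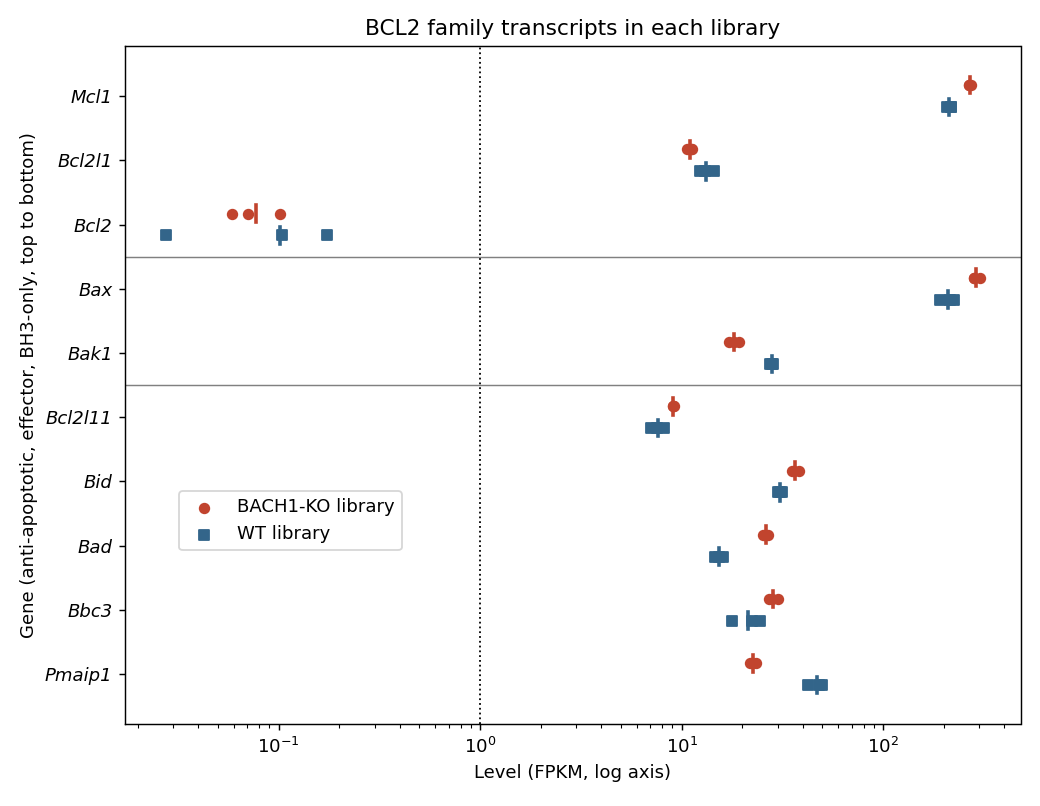
Level of each of the 10 genes in FPKM on a log axis, with 1 symbol per library (red circles BACH1-KO, blue squares WT), short bars at the group means and a dotted line at 1 FPKM, the lower limit for testing. Mcl1 and Bax are the 2 highest genes in all 6 libraries, Bcl2 is the lowest in all 6, and of the 9 tested genes Pmaip1 shows the largest distance between the genotype means.

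Mcl1, the short-lived guardian that many cells need from one hour to the next, was the main anti-apoptotic transcript (chromosome 3, 95658788 to 95663176, plus strand, mm10). It was at 274, 268 and 268 FPKM in the BACH1-KO libraries, against 207, 217 and 216 FPKM in WT. All 3 knockout libraries lay above all WT libraries, and the means were 270.1 ± 3.52 and 213 ± 5.85 FPKM (SD, n = 3 each, as for every ± below). Mcl1 had a log2 fold change of 0.34 (SE 0.031, limma adjusted p = 1.87e-05), a 1.27-fold higher mean. After quantile normalization, which forces all libraries to 1 distribution, the log2 fold change of Mcl1 was 0.53.

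Bcl2l1, which encodes BCL-XL (chromosome 2, 152780668 to 152831728, minus strand), moved the other way. Its levels were 11.2, 10.7 and 11.3 FPKM in BACH1-KO, against 14.5, 12.3 and 13.05 FPKM in WT. The groups did not overlap, though the gap between the highest knockout and the lowest WT library was smaller than the spread within WT. Bcl2l1 fell by 0.25 on the log2 scale (SE 0.063, limma adjusted p = 0.00726). Mcl1 and Bcl2l1 are both known STAT3 targets in other cells, and Stat3 itself was at 8.02 ± 0.346 FPKM in BACH1-KO and 23.2 ± 1.23 FPKM in WT. Whether STAT3 had a part in the change of either gene was not tested. The ratio of Mcl1 to Bcl2l1 was 24.6, 25.2 and 23.8 in BACH1-KO, against 14.3, 17.6 and 16.6 in WT, so the surplus of Mcl1 over Bcl2l1 was larger in each knockout library than in any WT library.

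Bcl2, the founding member and a guardian of lymphocytes and neurons (chromosome 1, 106538178 to 106714274, minus strand), was close to the lower end of the table in both genotypes. It stood at 0.102, 0.0702 and 0.0588 FPKM in BACH1-KO and at 0.174, 0.103 and 0.0276 FPKM in WT. The lowest and the highest of the 6 values were both in WT, and the groups overlapped. With no filter on low values, when 62.9% of 18518 genes passed the threshold, Bcl2 did not (log2 fold change -0.031, limma adjusted p = 0.627), and no difference was detectable at this level. Genes averaging under 0.5 FPKM were higher in the knockout libraries as a whole, with library medians of 0.0978 to 0.0990 FPKM in BACH1-KO and 0.0217 to 0.0253 FPKM in WT over 5182 such genes. The mean of Bcl2 was lower in BACH1-KO, within the spread of WT.

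The effectors Bax and Bak1, whose products can each open the membrane without the other, changed in opposite directions. Bax (chromosome 7, 45461697 to 45466898, minus strand) was at 302, 282 and 281 FPKM in BACH1-KO, against 225, 216 and 193 FPKM in WT. The knockout libraries were all higher, with a gap of the highest WT to the lowest knockout library larger than the spread within either genotype. Bax rose by 0.45 on the log2 scale (SE 0.059, limma adjusted p = 1.63e-04). Bak1 (chromosome 17, 27019810 to 27029009, minus strand) was at 19.2, 17.2 and 18.2 FPKM in BACH1-KO, against 27.97, 28.5 and 27.6 FPKM in WT. Each knockout library was below each WT library, and Bak1 fell by 0.60 on the log2 scale (SE 0.048, limma adjusted p = 9.75e-06). The ratio of Bax to Bak1 was therefore 15.7, 16.4 and 15.4 in BACH1-KO and 8.03, 7.58 and 6.99 in WT, and its mean was 2.11-fold higher in BACH1-KO.

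Bak1 lies within Ggnbp1, a gene on the opposite strand whose annotated span covers all 9200 bases of Bak1. Ggnbp1 changed in the other direction and rose to 14.7, 10.5 and 13.8 FPKM in BACH1-KO, against 6.23, 6.42 and 5.89 FPKM in WT (log2 fold change 0.95, limma adjusted p = 7.75e-05). Whether reads were counted by strand is not given in the sources used here, so reads of the pair may be shared between them. Bax overlaps Gm45808, which has no row in the table, by 915 bases on the same strand.

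The promoters of the effector genes are shown because these genes moved in opposite directions. Both windows are from RefSeq (GRCm38.p6, the assembly of mm10), run from 250 bases before to 50 after the annotated start and read 5′ to 3′ on the gene's minus strand, chr7:45466849-45467148 for Bax and chr17:27028578-27028877 for Bak1. Capitals mark CACGTG, the E-box bound by MYC, MAX and USF factors.
Bax: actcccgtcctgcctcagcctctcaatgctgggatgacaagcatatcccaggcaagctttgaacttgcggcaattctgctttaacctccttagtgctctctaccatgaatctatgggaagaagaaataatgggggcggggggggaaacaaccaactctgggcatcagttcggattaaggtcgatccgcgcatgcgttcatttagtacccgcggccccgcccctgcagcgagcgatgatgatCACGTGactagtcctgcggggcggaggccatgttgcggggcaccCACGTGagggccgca
Bak1: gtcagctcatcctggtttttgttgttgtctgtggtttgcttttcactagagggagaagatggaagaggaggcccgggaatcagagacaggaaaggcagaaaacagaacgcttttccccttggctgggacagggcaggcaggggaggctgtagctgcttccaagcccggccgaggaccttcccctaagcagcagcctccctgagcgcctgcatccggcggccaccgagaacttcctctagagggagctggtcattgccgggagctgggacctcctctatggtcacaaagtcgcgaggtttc
The Bax window held CACGTG at 2 places, starting 9 bases before and 36 bases into the transcript, where 0.594% of the 32851 promoter windows in the table held at least 2 copies and 7.15% held at least 1. The Bak1 window held none. Myc, whose product binds these letters and which is also known to promote BAX activity, was at 1.44 ± 0.319 FPKM in BACH1-KO and 12.4 ± 3.96 FPKM in WT. A match is a description of the letters, not a bound site, and whether MYC had a part in the change of Bax or Bak1 was not tested.

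Among the BH3-only genes, Pmaip1 fell and the other 4 rose. Pmaip1 encodes NOXA, a selective antagonist of MCL1 (chromosome 18, 66458533 to 66465565, plus strand). Its levels were 22.3, 23.4 and 21.9 FPKM in BACH1-KO, against 42.3, 49.9 and 48.3 FPKM in WT. All 3 knockout libraries lay at about the same level, well below the lowest WT library. Pmaip1 had a log2 fold change of -1.02 (SE 0.063, limma adjusted p = 2.12e-06), the largest in size of the 9 tested members, and 3.76% of all tested genes had a lower one. Its mean was 2.08-fold higher in WT. Among the 94 other tested genes of the lists used here, Mtch2, Sesn1 and Usp9x had the highest Pearson's r with Pmaip1 (log2 values over the 6 libraries, 0.997 each). Of all tested genes 79 had a higher r than the third of these. Pearson's r ignores the size of a change: log2 fold changes were -0.16 for Mtch2, -0.87 for Sesn1 and -0.80 for Usp9x. Mtch2 lost its call after quantile normalization. These r values carry the difference between the 2 genotypes, so they are given as a description only.

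Bad encodes a BH3-only protein that survival kinases phosphorylate and silence (chromosome 19, 6941861 to 6951899, plus strand). It was at 26.1, 26.8 and 25.5 FPKM in BACH1-KO, against 16.001, 14.7 and 15.3 FPKM in WT. The gap between the lowest knockout and the highest WT library was several times the spread within either genotype. Bad rose by 0.73 on the log2 scale (SE 0.045, limma adjusted p = 2.12e-06), and 87.0% of all tested genes had a lower log2 fold change. Bad overlaps Gpr137 on the opposite strand by 620 bases, and Gpr137 was at 6.41 ± 0.794 FPKM in BACH1-KO and 5.64 ± 0.711 FPKM in WT (log2 fold change 0.16, limma adjusted p = 0.193).

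Bbc3, which encodes PUMA, a potent killer known as a p53 and CHOP target (chromosome 7, 16308393 to 16318205, plus strand), was at 27.2, 30.1 and 28.3 FPKM in BACH1-KO. The WT libraries had 17.7, 24.4 and 22.3 FPKM. The groups did not overlap, and WT was the more variable, with 1 library standing below the other two. Bbc3 rose by 0.40 on the log2 scale (SE 0.10, limma adjusted p = 0.00708), and by 0.28 without that WT library. As Bbc3 rose and Pmaip1 fell, their ratio was 1.22, 1.29 and 1.29 in BACH1-KO and 0.419, 0.488 and 0.463 in WT, so the more abundant of this pair was Bbc3 in every knockout library and Pmaip1 in every WT library.

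Bcl2l11, which encodes BIM, a binder of all the guardians (chromosome 2, 128126038 to 128162547, plus strand), had 9.07, 9.06 and 9.17 FPKM in BACH1-KO, against 7.53, 8.18 and 7.08 FPKM in WT. The knockout libraries differed among themselves by a coefficient of variation of 0.700%, the lowest of any tested member in either genotype, and all lay above WT. Bcl2l11 rose by 0.23 on the log2 scale (SE 0.060, limma adjusted p = 0.00693).

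Bid links death receptors to mitochondria, because caspase-8 cuts it into its active form (chromosome 6, 120891930 to 120916853, minus strand). It was at 35.5, 38.3 and 36.1 FPKM in BACH1-KO, against 30.6, 30.2 and 31.6 FPKM in WT, with no overlap between the groups. Bid had a log2 fold change of 0.24 (SE 0.041, limma adjusted p = 7.98e-04). Chromosome 6 as a whole was higher in BACH1-KO, with a median log2 fold change of 0.31 over its 535 tested genes, while the medians of the other chromosomes ran from -0.13 to 0.092. Set against its own chromosome, Bid was no longer higher: after centring on chromosome medians its log2 fold change was -0.059 (limma adjusted p = 0.217). Each of the other 8 tested members kept its call after the same centring. Bid overlaps Bcl2l13 by 913 bases on opposite strands, and Bcl2l13, another family gene, was at 11.6 ± 0.231 FPKM in BACH1-KO and 11.1 ± 0.184 FPKM in WT.

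**Figure D2:**
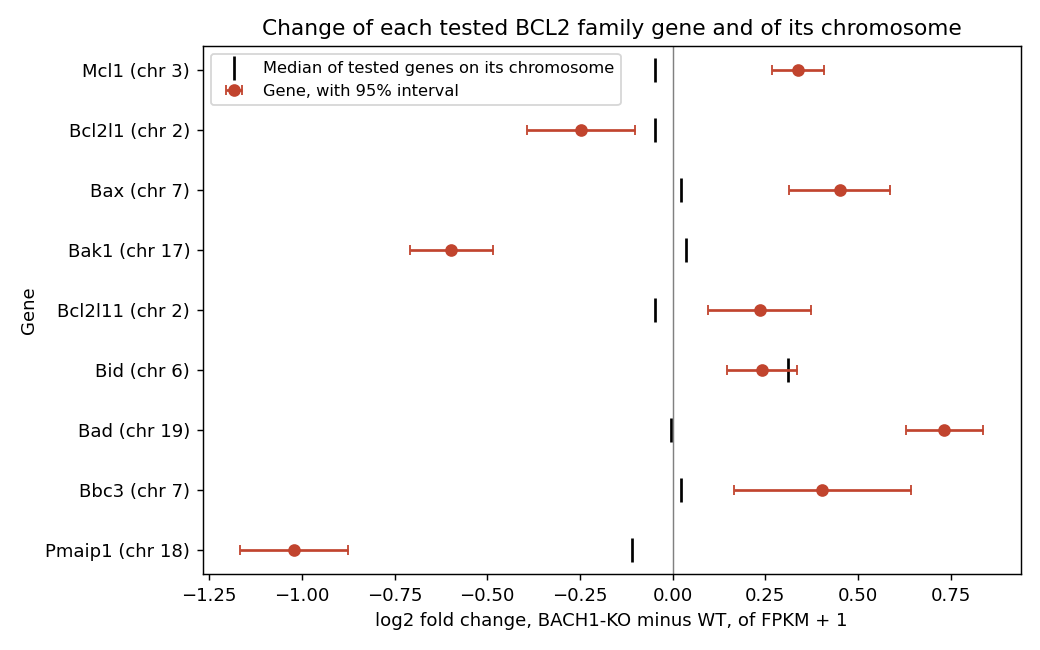
Log2 fold change of FPKM + 1 (BACH1-KO minus WT) of the 9 tested members, with 95% intervals from limma, beside the median of the tested genes on the same chromosome (black ticks). Bid alone has an interval that includes its chromosome's median, 0.31 for chromosome 6.

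The promoters of Bcl2l1 and Bbc3 are shown because theirs were the other windows of the family with a match to a searched motif. RefSeq (GRCm38.p6) held 15 windows for 9 members, all but Pmaip1. These 2 are chr2:152828440-152828739, minus strand, the most downstream of 3 starts of Bcl2l1, and chr7:16310181-16310480, plus strand, 1 of 3 starts of Bbc3. Capitals mark the antioxidant or MARE-type core TGACNNNGC, the kind of site that BACH1 and NRF2 bind, in Bcl2l1 (read there on the other strand), and CACGTG in Bbc3.
Bcl2l1: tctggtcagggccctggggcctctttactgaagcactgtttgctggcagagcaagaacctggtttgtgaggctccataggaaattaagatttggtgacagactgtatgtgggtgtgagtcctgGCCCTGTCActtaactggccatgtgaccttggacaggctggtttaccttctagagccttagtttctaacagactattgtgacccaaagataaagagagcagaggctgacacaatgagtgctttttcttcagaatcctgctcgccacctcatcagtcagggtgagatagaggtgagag
Bbc3: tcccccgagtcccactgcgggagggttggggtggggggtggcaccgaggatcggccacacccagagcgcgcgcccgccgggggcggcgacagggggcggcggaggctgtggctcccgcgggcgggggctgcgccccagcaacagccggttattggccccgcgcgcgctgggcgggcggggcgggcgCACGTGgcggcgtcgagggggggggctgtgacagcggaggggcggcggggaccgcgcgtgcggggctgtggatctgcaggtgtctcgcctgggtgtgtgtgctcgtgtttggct
The core TGACNNNGC was in 1 of the 15 windows, and 12.4% of all windows of this length held it. The STAT-type motif TTCNNNGAA, present in 8.30% of all windows, the CHOP or ATF4-type motif TGATGNAA, present in 3.97%, and a full p53-type site, present in 0.0731%, were in none of the 15. The p53-type decamer, one arm of a full site, was in the Bax window, 201 bases before the start, and in 8.36% of all windows. Both strands were searched with no mismatch allowed, and the motifs share no base in these windows. As only 24 of all 32851 windows held a full p53-type site, its absence from these 15 says little. G and C made up 49.3% to 78.0% of the family's windows, beside a median of 52.7% over all windows.

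The shares of several genes within the family separated the genotypes, and so did some of the sums over roles. Summed FPKM of the 10 genes was 727, 706 and 699.5 in BACH1-KO and 588, 602 and 574 in WT. Mcl1 and Bax together made up 78.0% to 79.3% of it in BACH1-KO and 71.2% to 73.3% in WT. Pmaip1 made up 3.06% to 3.32% in BACH1-KO and 7.19% to 8.41% in WT, and Bak1 2.43% to 2.65% in BACH1-KO and 4.74% to 4.80% in WT. Summed anti-apoptotic transcripts were at 279 to 285 FPKM in BACH1-KO and 221 to 229.8 FPKM in WT, and summed effectors at 299 to 321 FPKM in BACH1-KO and 220.1 to 253 FPKM in WT, with no overlap in either. The summed BH3-only transcripts did overlap, at 123 ± 4.17 FPKM in BACH1-KO and 122 ± 6.92 FPKM in WT (SD, n = 3 each). Their share of the family did not overlap, at 16.5% to 18.1% in BACH1-KO and 19.4% to 21.7% in WT. Within the BH3-only sum, Pmaip1 held 18.1% to 18.5% in BACH1-KO and 37.0% to 39.2% in WT, and Bad 21.0% to 21.7% in BACH1-KO and 11.5% to 14.0% in WT. The ratio of summed effectors to summed anti-apoptotic transcripts overlapped, at 1.07 to 1.13 in BACH1-KO and 0.960 to 1.14 in WT. These sums compare transcripts, not proteins, and carry no test.

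**Figure D3:**
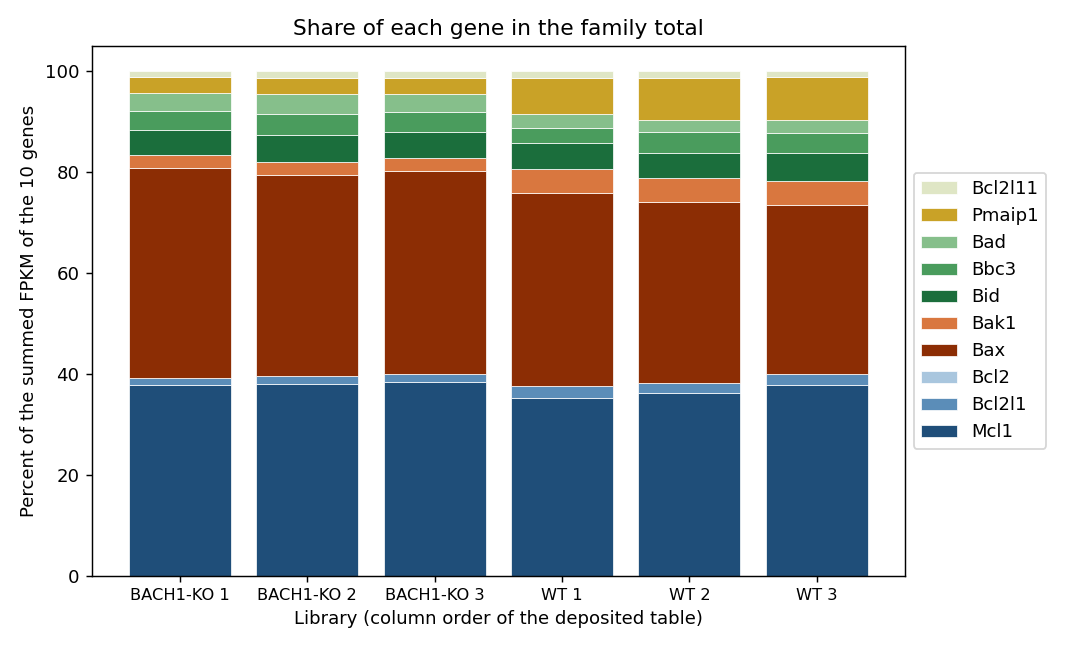
Share of each gene in the summed FPKM of the 10 genes, 1 bar per library, BACH1-KO left of WT. Mcl1 and Bax fill 78.0% to 79.3% of the knockout bars and 71.2% to 73.3% of the WT bars, and the Pmaip1 segment is the one that shrinks most in BACH1-KO.

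**Figure D4:**
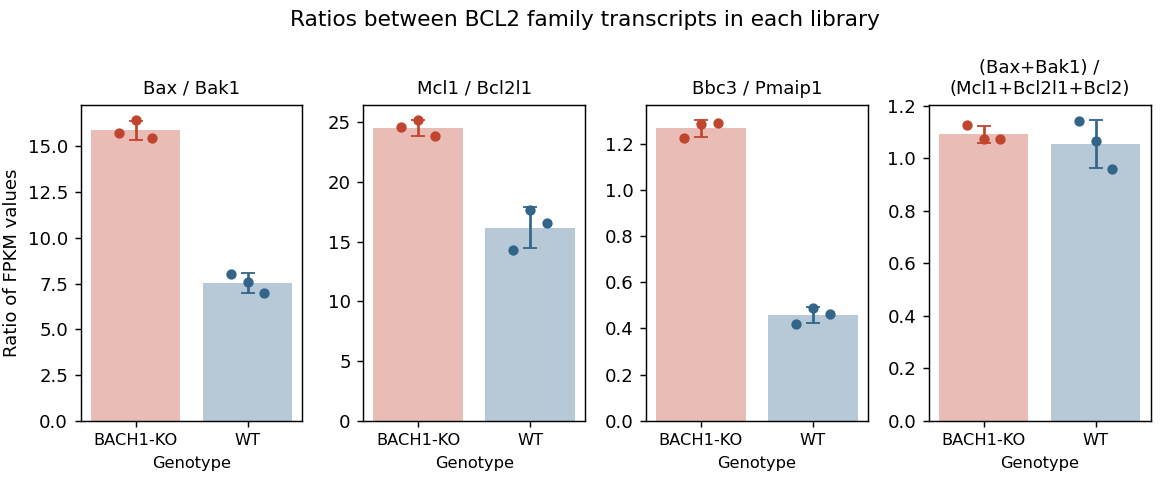
Ratios of FPKM between family transcripts, with a point per library, bars at the means and error lines of 1 SD, each panel starting at 0. The first 3 ratios separate the genotypes in all libraries, and the ratio of effectors to anti-apoptotic genes overlaps.

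The order of the members by level differed as well. In BACH1-KO it ran Bax, Mcl1, Bid, Bbc3, Bad, Pmaip1, Bak1, Bcl2l1, Bcl2l11 and Bcl2, with no overlap between neighbours. In WT it ran Mcl1, Bax, Pmaip1, Bid, Bak1, Bbc3, Bad, Bcl2l1, Bcl2l11 and Bcl2, where only Mcl1 and Bax overlapped. Pmaip1 took the third place in WT and the sixth in BACH1-KO, and Bad moved up past Bak1 and Pmaip1.

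Relatives of the 10 genes also moved in both directions. Of 18 further BCL2 family genes, 16 had a row and 12 were tested: 4 rose, 3 fell and 5 did not pass, with a median log2 fold change of 0.056. Among all tested genes 37.3% rose and 39.7% fell. Hrk, which encodes the BH3-only protein Harakiri known from neurons, rose to 3.55 ± 0.167 FPKM in BACH1-KO, against 0.812 ± 0.0432 FPKM in WT (log2 fold change 1.33, SE 0.072, limma adjusted p = 1.03e-06). With a WT mean under 1 FPKM, Hrk passed the limit for testing only through BACH1-KO, so it could not have been called lower. Bcl2l14 rose to 7.84 ± 0.907 FPKM in BACH1-KO, against 2.09 ± 0.395 FPKM in WT, a log2 fold change of 1.52. It also lies on chromosome 6 and was still called after centring on chromosome medians (log2 fold change 1.22, limma adjusted p = 2.26e-05). Bmf, a BH3-only gene tied to the cytoskeleton, was at 10.3 ± 0.441 FPKM in BACH1-KO and 7.06 ± 0.188 FPKM in WT, and rose by 0.49 on the log2 scale. Bik rose by 0.43, a call lost without the second BACH1-KO library (limma adjusted p = 0.0522) and after quantile normalization (adjusted p = 0.0930), with adjusted p from 5.60e-04 to 1 over its alternatives. Bok, an effector-like relative of Bax and Bak1, fell to 8.11 ± 0.734 FPKM in BACH1-KO, against 13.1 ± 0.884 FPKM in WT. The mitophagy receptors Bnip3 and Bnip3l, known hypoxia targets, also fell, Bnip3 to 268 ± 3.32 FPKM in BACH1-KO against 368 ± 31.3 FPKM in WT, and Bnip3l to 46.9 ± 0.720 FPKM against 72.8 ± 1.21 FPKM.

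Bcl2l2, which encodes the guardian BCL-W and is named here after its values were seen, was at 7.32 ± 0.410 FPKM in BACH1-KO and 7.20 ± 0.267 FPKM in WT, with a 95% interval of the log2 fold change from -0.12 to 0.16. The BFL1 genes Bcl2a1a and Bcl2a1b, near-identical copies that can share reads, reached at most 0.356 and 0.383 FPKM in BACH1-KO and were listed at 0 in WT. Bcl2l10, not tested, was at 0.508 ± 0.0327 FPKM in BACH1-KO and 0.178 ± 0.137 FPKM in WT. Together with Bcl2, these values leave Mcl1 as the dominant guardian transcript in both genotypes, followed at a distance by Bcl2l1 and Bcl2l2.

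Downstream of the membrane, the apoptosome and caspase list had 14 tested genes, 6 higher, 4 lower and 4 not past the threshold, and a median log2 fold change of 0.017. The shares over all tested genes were 37.3% higher and 39.7% lower. Casp8, the initiator caspase that cuts BID, fell to 2.67 ± 0.354 FPKM in BACH1-KO, against 9.43 ± 0.610 FPKM in WT (log2 fold change -1.51, SE 0.086, limma adjusted p = 1.35e-06). Aifm1, a respiratory and death factor of the intermembrane space, fell to 26.9 ± 0.240 FPKM in BACH1-KO, against 69.4 ± 1.77 FPKM in WT. Of other factors that mitochondria release, named here after their values were seen, Endog did not pass (log2 fold change -0.16, limma adjusted p = 0.148) and 3 rose: Cycs (cytochrome c) to 66.8 ± 2.70 FPKM in BACH1-KO against 54.3 ± 1.54 FPKM in WT, Diablo (SMAC) to 45.5 ± 1.71 against 28.5 ± 1.22 FPKM, and Htra2 to 15.1 ± 2.21 against 8.28 ± 0.374 FPKM. Cycs and Htra2 lie on chromosome 6, and after centring on chromosome medians Cycs was no longer called (log2 fold change -0.0064, limma adjusted p = 0.897), while that of Htra2 was 0.49 and still called. Apaf1 and Casp9, the core of the apoptosome and also named afterwards, did not pass, with 95% intervals of the log2 fold change from -0.26 to 0.024 and from -0.12 to 0.18.

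Of the inhibitors of apoptosis, some of which block caspases and are displaced by SMAC, 6 were tested. Among these 5 fell, none rose and 1 did not pass, with a median log2 fold change of -0.39. That count of 5 was 4 under several of the alternatives given below. Over all tested genes 39.7% fell and 37.3% rose. Naip5, not tested, was higher in BACH1-KO at 0.300 ± 0.0589 FPKM, against 0.0533 ± 0.0333 FPKM in WT. Birc5, which encodes survivin and also serves in mitosis, fell to 261 ± 4.07 FPKM in BACH1-KO, against 374 ± 20.8 FPKM in WT. Birc6, a giant ubiquitin ligase, fell to 2.83 ± 0.0135 FPKM in BACH1-KO, against 5.49 ± 0.126 FPKM in WT. Xiap, the direct caspase inhibitor, fell to 9.99 ± 0.268 FPKM in BACH1-KO, against 12.2 ± 0.561 FPKM in WT.

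Of the death receptor genes 7 were tested, and 4 rose, 1 fell and 2 did not pass, with a median of 0.30. Over all tested genes 37.3% rose and 39.7% fell. Fadd, the adaptor that recruits caspase-8, rose to 1.78 ± 0.0703 FPKM in BACH1-KO, against 0.640 ± 0.0955 FPKM in WT. As its WT mean was under 1 FPKM, Fadd too passed the limit for testing only through BACH1-KO. Traf2 rose to 8.40 ± 0.527 FPKM in BACH1-KO, against 6.55 ± 0.436 FPKM in WT, and Tnfrsf1a, the TNF receptor, fell to 3.64 ± 0.118 FPKM, against 5.05 ± 0.268 FPKM. Fas missed the limit for testing, with 1.31, 1.55 and 1.37 FPKM in BACH1-KO and 0.327, 0.394 and 0.667 FPKM in WT.

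Among 11 partners of BAX and BAK at the mitochondrion 8 fell, 2 rose and 1 did not pass, with a median of -0.26. Over all tested genes 39.7% fell. Vdac1, an outer membrane channel, fell to 428 ± 3.39 FPKM in BACH1-KO, against 668 ± 21.9 FPKM in WT. Opa1, which shapes the cristae, fell to 12.8 ± 0.481 FPKM in BACH1-KO, against 23.6 ± 0.481 FPKM in WT, and Dnm1l, the fission dynamin, to 34.8 ± 0.868 FPKM, against 57.2 ± 1.92 FPKM. Vdac2, the channel that holds BAK at the membrane, named after its values were seen, fell to 288 ± 1.53 FPKM in BACH1-KO, against 351 ± 4.21 FPKM in WT.

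The known regulators of the family moved both ways, 9 higher, 8 lower and 2 not past of 19 tested, with a median of 0.19. The shares over all tested genes were 37.3% higher and 39.7% lower. Among the 9, Trp73 averaged 0.483 FPKM in WT and passed the limit for testing only through BACH1-KO. The stress genes showed the largest rises: Ddit3, which encodes CHOP, an inducer of Bbc3 and Bcl2l11 in other cells, was at 133 ± 3.14 FPKM in BACH1-KO and 23.9 ± 2.24 FPKM in WT, a log2 fold change of 2.43. Atf4, a known inducer of Pmaip1 in other cells, was at 419 ± 11.7 FPKM in BACH1-KO and 91.7 ± 5.88 FPKM in WT. Whether CHOP or ATF4 had a part in the changes of the family was not tested. Trib3, a CHOP target, rose to 46.1 ± 0.271 FPKM in BACH1-KO, against 7.70 ± 0.254 FPKM in WT. Usp9x, which removes ubiquitin from MCL1, fell to 14.97 ± 0.208 FPKM in BACH1-KO, against 26.9 ± 0.873 FPKM in WT, and Huwe1, a ligase that marks MCL1 for destruction, to 15.5 ± 0.560 FPKM, against 20.7 ± 0.578 FPKM (Huwe1 named afterwards).

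Trp53, which controls Bax, Bbc3 and Pmaip1 among others, was at 207 ± 5.94 FPKM in BACH1-KO and 231 ± 12.5 FPKM in WT, a log2 fold change of -0.16 (limma adjusted p = 0.0102). Quantile normalization ended that call and turned its sign (0.021, limma adjusted p = 0.720), and centring on chromosome medians ended it too (-0.027, limma adjusted p = 0.572). Of 17 tested p53 targets outside the family 13 rose, 2 fell and 2 did not pass, with a median of 0.38. Over all tested genes 37.3% rose. Ccng1 rose to 263 ± 3.60 FPKM in BACH1-KO, against 94.8 ± 2.19 FPKM in WT, Gadd45a to 96.5 ± 2.30 FPKM, against 25.9 ± 1.44 FPKM, and Sesn2 to 40.6 ± 2.02 FPKM, against 11.6 ± 0.582 FPKM. Gadd45a and Sesn2 are also known ATF4 or CHOP targets. Gadd45a lies on chromosome 6 and was still called after centring on chromosome medians (log2 fold change 1.56, limma adjusted p = 7.52e-08). Bax and Bbc3 had the direction of most of this list, and Pmaip1 that of the 2 targets that fell, Sesn1 (log2 fold change -0.87) and Perp (-0.70). Whether p53 had a part in any of these changes was not tested.

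**Figure D5:**
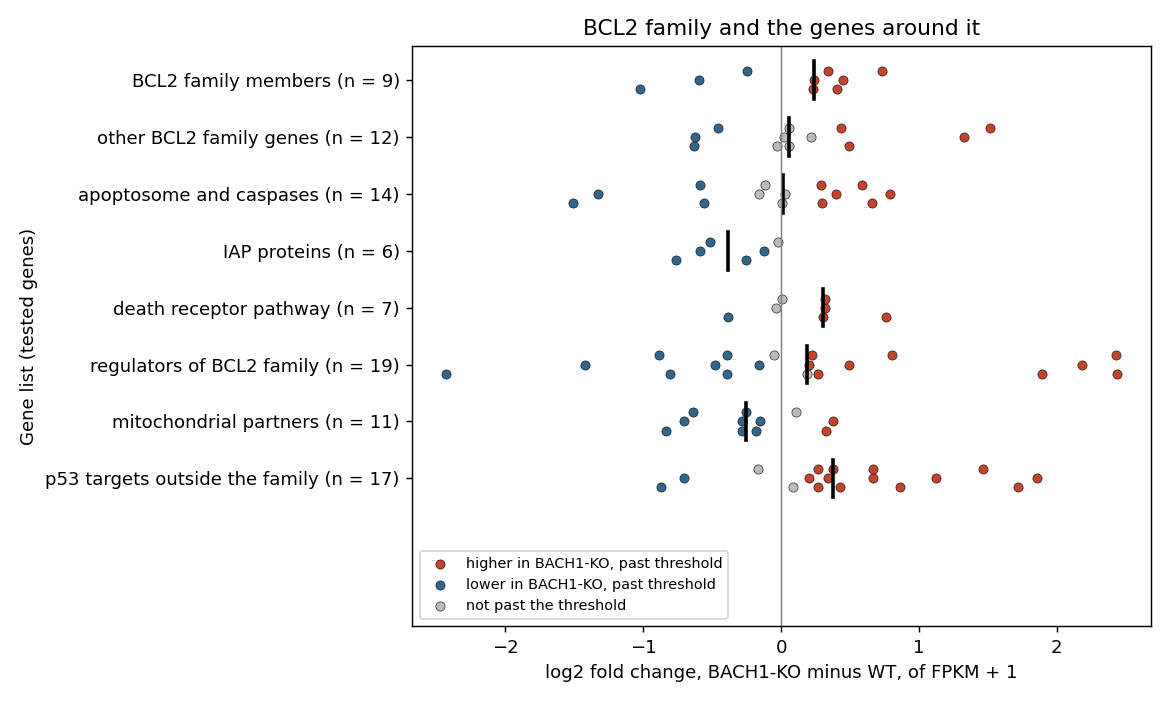
Log2 fold change of FPKM + 1 (BACH1-KO minus WT) of each tested gene of the family and of the 7 lists around it, coloured by call, with a black bar at each list's median and points spread vertically for legibility. No inhibitor of apoptosis is called higher, and the regulators span the widest range, from -2.43 to 2.44.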

How the data were processed

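RNA was sequenced from 3 BACH1-KO and 3 WT libraries. The deposited table holds FPKM made by the authors with Cufflinks on mm10, per the submitters' processing notes; the aligner, the annotation and all versions: not given in the sources used here. Columns name the genotype but match no single title, so each was a replicate without number. Of 18541 rows, 23 held a number in place of a symbol (0.0987% of the FPKM) and were left out. No counts were used and absolute depth is unknown; steps of low values gave relative depths of 1.17, 1.18 and 1.01 for BACH1-KO and 1.00, 1.10 and 1.06 for WT.

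Log2(FPKM + 1) of the 12187 genes averaging at least 1 FPKM was fitted in R 4.3.3 by lmFit and trended eBayes of limma 3.58.1, two-sided, with Benjamini-Hochberg adjustment over all tested genes. The code of the fit was run on simulated data in which few genes changed, unlike these data, so that run does not bear on the calls. Intervals are 95% and moderated. Gene bounds are from GENCODE M21, promoters from RefSeq. All members are named; of each list up to 3 called genes with the smallest adjusted p, and every called gene of the further BCL2 family genes; 1 gene that this rule names is not reported here; other names were chosen after values were seen, Stat3, Myc, Trp53 and Fas among them. The members and lists were chosen with earlier results of these data known.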

Additional observations from a re-analysis of the deposited data

How the results depend on the processing

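The 9 tested members kept direction and call under both other pseudocounts (0.1 and 0.5), no filter, a 5 FPKM filter, median-of-ratios scaling, quantile normalization, a constant prior variance and without each library in turn. Centring on chromosome medians turned Bid to -0.059 (limma adjusted p = 0.217) and left 5 members higher and 3 lower. The test against a 1.5-fold change called 2319 genes (1325 higher, 994 lower), with 1 member higher and 1 lower; the log2 fold changes that were no longer called were 0.34 for Mcl1, -0.25 for Bcl2l1, 0.45 for Bax, -0.60 for Bak1, 0.23 for Bcl2l11, 0.24 for Bid and 0.40 for Bbc3. In that test the calls were 2 further BCL2 family genes, 2 apoptosome genes, 1 inhibitor of apoptosis, 8 regulators, 2 mitochondrial partners, 6 p53 targets and 0 death receptor genes by limma (1 at an unadjusted p under 0.05). The 5 FPKM filter, which tests fewer genes, left 2942 genes higher, and 4 further BCL2 family, 3 inhibitor and 2 death receptor genes called. Inhibitor calls, 5 in the main fit, were 4 with median-of-ratios scaling, a constant prior variance or chromosome centring, and without some single libraries. With no filter they were 6. Death receptor calls, 5 in the main fit, were 4 without the second or the third BACH1-KO library and 7 with no filter. Over the same alternatives, 39 called genes outside the 10 kept their call in 553 checks, lost it in 24 and changed sign in 2: Trp53 after quantile normalization (0.021) and Cycs after chromosome centring (-0.0064). Log2 fold changes that moved by over 1.5 times were, with a pseudocount of 0.1, 1.35 for Fadd and 2.00 for Hrk; after quantile normalization, 0.53 for Mcl1, 0.45 for Fadd, -0.29 for Bnip3, 0.26 for Bik, -0.13 for Vdac2 and -0.0086 for Mtch2 (call lost); and after chromosome centring, -0.68 for Tnfrsf1a and 0.49 for Htra2, both on chromosome 6, -0.18 for Vdac2 and -0.027 for Trp53 (call lost). No paired analysis was possible because the columns carry no replicate number tied to a sample. The depth behind low genes such as Bcl2 is unknown.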
